A study of Rattus norvegicus and Bos taurus with 6 samples.

Results

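The 8 genes described here are the neuregulins Nrg1, Nrg2, Nrg3 and Nrg4 and the ErbB receptors Egfr, Erbb2, Erbb3 and Erbb4, taken by name and not by a threshold on their values from 63342 distinct gene names over the 3 gene tables of the series. All 8 were listed and had at least 1 UMI (unique molecular identifier, 1 counted transcript) in all 6 libraries. The libraries come from single-nucleus RNA sequencing of frozen fat, with 1 library per condition and no replicates. Male Dahl SS (SS/HsdMcwiCrl) rats housed at 22 degrees Celsius gave mesenteric perivascular fat (mesPVAT), retroperitoneal fat (RP fat), perivascular fat of the thoracic aorta (taPVAT) and subscapular brown fat (BAT). Female lactating Holstein cows gave subcutaneous white fat of the flank (cow WAT). The animals were labelled normal, their ages and the number of animals in each library were not given in the sources used here, and the cow library differs from the rat libraries in species, sex and physiological state together.

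The 5 libraries labelled batch 2 were made with the Parse kit, which barcodes RNA inside fixed nuclei, after nuclei were released by grinding in liquid nitrogen and a Dounce homogenizer. Within this isolation, the study spun taPVAT at a lower speed than rat and cow white fat, and it states no speed for BAT. The one labelled batch 1 is mesPVAT on the 10x Genomics platform, made with another isolation and a sort of stained nuclei. The white rat libraries of the Parse kit, called Parse mesPVAT and Parse RP fat, are named as deposited, and the order of their genes per nucleus in the files is opposite to that in the study's text. The study found no clear inflection point in their plots of UMIs by barcode. It took this as a sign of difficulty in telling true nuclei from background or ambient RNA. Every barcode in the files is counted as a nucleus here, and the part of ambient RNA in the values was not tested. The libraries hold 2297 to 5887 nuclei and 845316 to 16827260 UMIs, with median UMIs per nucleus of 161 in mesPVAT 10x, 346 in Parse mesPVAT and 213 in Parse RP fat. The medians were higher in the brown depots, 1246 for taPVAT and 1706 for BAT, and highest in cow WAT (3530). No barcode was shared between any 2 libraries. Ucp1, the uncoupling protein of brown fat, stood at 1782 CPM (the UMIs of a gene scaled to 1000000 UMIs) and 2072 CPM in the brown depots taPVAT and BAT, and at 0.654 to 89.9 CPM elsewhere. Plin1, which coats the lipid droplet of adipocytes, ranged from 164 CPM in cow WAT to 2501 CPM in BAT. An adipocyte list of 8 genes that includes Plin1 gave another order. It summed to 5492 CPM in mesPVAT 10x, 5338 CPM in BAT and 5100 CPM in taPVAT. Sums were 2855 CPM in Parse mesPVAT, 2472 CPM in cow WAT, where 7 of the genes are listed, and 927 CPM in Parse RP fat. The mesothelial list summed to 899 CPM in mesPVAT 10x and to 9.97 to 104 CPM in the Parse libraries. All intervals below are exact 95% intervals that cover counting error only, so a difference outside them separates 2 libraries and not 2 conditions. A summed level falls alike when fewer cells carry a gene and when each cell holds less of its RNA, and these cannot be told apart from it.

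Neuregulins are growth factors of the EGF family that act on neighbouring cells through the ErbB receptor tyrosine kinases. Erbb3 and Erbb4 bind neuregulins directly, Erbb2 binds no known ligand and acts as the partner of the others, and Egfr is the receptor of EGF and its relatives. Nrg4, which binds Erbb4, is known as a factor secreted by brown adipocytes, Nrg1 is known for its part in Schwann cell and heart development, and Nrg2 and Nrg3 are studied mostly in the nervous system.

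The members differ widely in gene length, which bears on nuclear RNA, where unspliced transcripts are counted. In the GRCr8 rat assembly, the RefSeq annotation places Nrg4 at chr8:64483559-64555671, a span of 72.1 kb from start to end with introns, and Erbb4 at chr9:76973386-78045633, a span of 1072 kb. Nrg1 (chr16:65954084-67007484, 1053 kb) and Nrg3 (chr16:14256540-15374107, 1118 kb) are as long as Erbb4. Nrg2 spans 182 kb on chromosome 18 and Egfr 173 kb on chromosome 14, while Erbb2 spans 23.9 kb on chromosome 10 and Erbb3 21.3 kb on chromosome 7.

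RefSeq promoter sequences (GRCr8, 250 bases before to 50 bases after a start) were matched for 6 of the 8 members, all but Nrg1 and Erbb3. For Nrg4, Erbb4 and Erbb2 the promoter table uses another start than the end of the gene span given above, and the Nrg4 window lies wholly within that span. The Nrg4 and Erbb4 promoters are shown because these were the members raised in the adipocyte marker class of both brown libraries, as described further on. Capitals mark matches, on either strand, to the nuclear receptor half-site AGGTCA in Nrg4 and to the GC box GGGCGG in Erbb4. The windows are chr8:64555124-64555423 for Nrg4 and chr9:78045557-78045856 for Erbb4, both read from the minus strand.
Nrg4: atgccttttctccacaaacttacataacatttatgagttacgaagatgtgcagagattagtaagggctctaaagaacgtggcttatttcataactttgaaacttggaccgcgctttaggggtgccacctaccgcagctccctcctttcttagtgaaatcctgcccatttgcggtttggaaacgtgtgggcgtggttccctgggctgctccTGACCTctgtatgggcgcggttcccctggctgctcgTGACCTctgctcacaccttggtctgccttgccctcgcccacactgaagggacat
Erbb4: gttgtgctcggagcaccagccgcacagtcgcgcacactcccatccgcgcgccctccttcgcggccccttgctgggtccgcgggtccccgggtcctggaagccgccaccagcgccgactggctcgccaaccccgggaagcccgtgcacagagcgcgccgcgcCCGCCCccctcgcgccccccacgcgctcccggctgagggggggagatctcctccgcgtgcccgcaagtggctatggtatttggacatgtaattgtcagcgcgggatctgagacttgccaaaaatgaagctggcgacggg
The Nrg4 window held 2 matches to the half-site, a motif found in 16.2% of 33469 rat promoters of this length, and no GC box (in 33.1% of promoters). The Erbb4 window held 1 GC box and no half-site, and its GC content was 70.3% against 52.0% in Nrg4 and a median of 51.7% over the promoters. Neither held the letters CCAAT. These are matches of letters and no measure of binding.

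Among the ligands, Nrg4 was the member with its highest levels in the brown libraries. It reached 456 CPM in taPVAT (437 to 475, 2324 UMIs) and 407 CPM in BAT (391 to 423, 2571 UMIs). It stood at 84.8 CPM in mesPVAT 10x (69.4 to 103), 56.1 CPM in Parse mesPVAT (45.3 to 68.8), 55.6 CPM in Parse RP fat (40.9 to 73.9) and 9.98 CPM in cow WAT (8.53 to 11.6). Both brown libraries therefore lie above all white ones, and the step from BAT down to mesPVAT 10x is 4.80-fold (3.95 to 5.89). The 2 white rat Parse libraries did not differ beyond counting error (ratio 1.01, 0.704 to 1.47). The Parse wells into which each sample was first loaded are technical repeats within a library, and the 3 wells of taPVAT ranged from 422 to 497 CPM and the 3 wells of BAT from 369 to 428 CPM.

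Nrg1 was highest in the white rat Parse libraries, with 364 CPM in Parse mesPVAT (335 to 394) and 532 CPM in Parse RP fat (484 to 584). It was at 70.2 CPM in taPVAT (63.1 to 77.9), 43.2 CPM in BAT (38.2 to 48.7), 29.9 CPM in mesPVAT 10x (21.1 to 41.2) and 17.2 CPM in cow WAT (15.3 to 19.3). Each step in this order was larger than counting error. Within the wells, Nrg1 ranged from 361 to 368 CPM in Parse mesPVAT and from 46.1 to 81.3 CPM in taPVAT, so the largest well of taPVAT was still far below the white Parse libraries. A single nucleus of Parse mesPVAT held 45 of the 603 Nrg1 UMIs, against at most 3 in a nucleus of Parse RP fat. Single nuclei of Parse mesPVAT also held 28 of 561 Nrg3 UMIs and 32 of 522 Erbb4 UMIs. The Poisson intervals do not cover such uneven counts.

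Nrg3 followed Nrg1 in the rat, with 339 CPM in Parse mesPVAT (311 to 368) and 445 CPM in Parse RP fat (401 to 492) against 47.3 CPM in taPVAT (41.5 to 53.6) and 38.1 CPM in BAT (33.5 to 43.3). It was at 50.1 CPM in mesPVAT 10x (38.4 to 64.2), which did not differ from taPVAT beyond counting error, and at 91.6 CPM in cow WAT (87.1 to 96.3), where it was the neuregulin with the most UMIs (1542). That count is not scaled to span. Nrg2 varied less, from 12.1 CPM in mesPVAT 10x (6.78 to 19.99, 15 UMIs) through 21.4 CPM in cow WAT (19.2 to 23.7), 47.1 CPM in taPVAT (41.3 to 53.4), 57.6 CPM in BAT (51.8 to 63.8) and 82.7 CPM in Parse mesPVAT (69.4 to 97.8) to 110 CPM in Parse RP fat (88.8 to 135). Its steps exceeded counting error, the smallest by little (BAT over taPVAT 1.22, 1.04 to 1.45).

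**Figure D1:**
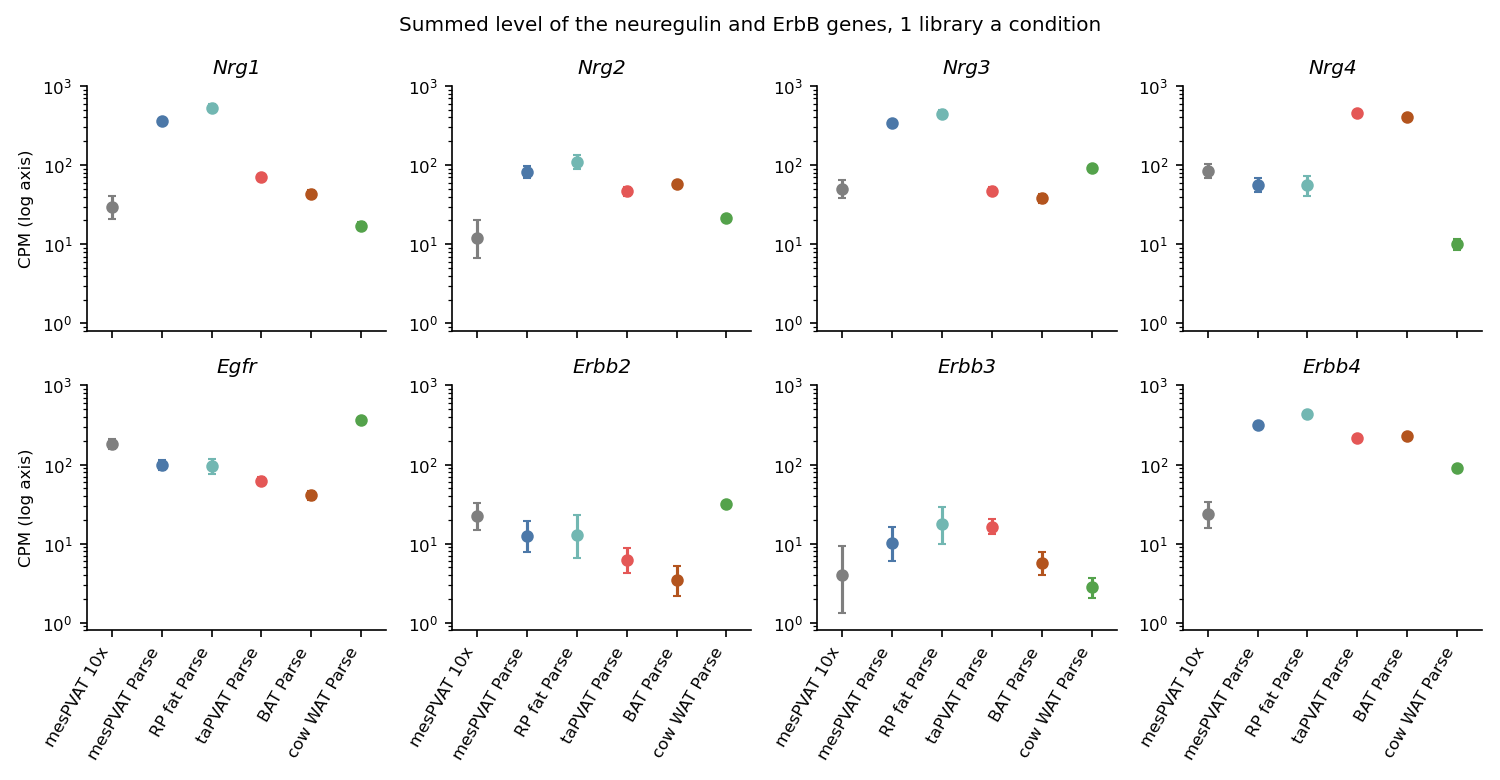
Level of each member in the 6 libraries, in CPM on a log axis, with points for the UMIs summed over all nuclei and bars for exact Poisson 95% intervals. Nrg4 peaks in taPVAT and BAT (456 and 407 CPM), Nrg1, Nrg3 and Erbb4 in the white rat Parse libraries, and Egfr and Erbb2 in cow WAT (367 and 31.3 CPM).

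Among the receptors, Egfr and Erbb2 were highest in cow WAT and lowest in BAT. Egfr was at 367 CPM in cow WAT (358 to 376, 6171 UMIs), 182 CPM in mesPVAT 10x (159 to 207), 99.0 CPM in Parse mesPVAT (84.4 to 115), 94.6 CPM in Parse RP fat (75.04 to 118), 61.8 CPM in taPVAT (55.1 to 69.0) and 40.7 CPM in BAT (35.9 to 46.0). Of these steps, the one between the 2 white rat Parse libraries lay within counting error (1.05, 0.796 to 1.38). Erbb2 was low throughout the rat libraries, at 22.6 CPM in mesPVAT 10x (15.0 to 32.7), 12.7 CPM in Parse mesPVAT (7.85 to 19.4), 13.01 CPM in Parse RP fat (6.496 to 23.3), 6.27 CPM in taPVAT (4.29 to 8.86) and 3.48 CPM in BAT (2.18 to 5.27), against 31.3 CPM in cow WAT (28.6 to 34.0). Its 3 upper steps, from cow WAT to Parse mesPVAT, were within counting error.

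Erbb4, the receptor of Nrg4, was also highest in the white rat Parse libraries. It was at 315 CPM in Parse mesPVAT (289 to 343), 429 CPM in Parse RP fat (386 to 476), 215 CPM in taPVAT (202 to 228) and 229 CPM in BAT (217 to 241). The levels of taPVAT and BAT were not apart beyond counting error (BAT over taPVAT 1.07, 0.985 to 1.15), and both lay below the white Parse libraries. Cow WAT held 89.7 CPM (85.2 to 94.3) and mesPVAT 10x 23.4 CPM (15.7 to 33.7, 29 UMIs). Erbb3 was sparse, at 4.04 CPM in mesPVAT 10x (1.31 to 9.43, 5 UMIs), 10.3 CPM in Parse mesPVAT (5.98 to 16.4), 17.7 CPM in Parse RP fat (9.93 to 29.3), 16.5 CPM in taPVAT (13.1 to 20.4), 5.70 CPM in BAT (3.99 to 7.89) and 2.79 CPM in cow WAT (2.05 to 3.71). No neighbours in its order were apart beyond counting error.

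CPM and UMIs elsewhere in this text are not scaled to span. Levels of different genes are set side by side here per 100 kb of rat span, as a level and not as a difference. On that scale Nrg4 led the 8 members in taPVAT (632 CPM per 100 kb) and BAT (564 CPM per 100 kb), with Erbb3 next in taPVAT (77.3) and Nrg2 next in BAT (31.7). In Parse RP fat the members lay closer together, from 39.8 CPM per 100 kb for Nrg3 to 83.3 for Erbb3, and in Parse mesPVAT from 29.4 for Erbb4 to 77.8 for Nrg4. In mesPVAT 10x the range was wide again, from 2.19 CPM per 100 kb for Erbb4 to 118 for Nrg4. The 3 members of over 1000 kb, Nrg1, Nrg3 and Erbb4, were the lowest on this scale in every rat library except BAT. In mesPVAT 10x each stood under 4.5 CPM per 100 kb. In BAT, Nrg3 (3.41) and Nrg1 (4.10) were under that level too, and Erbb2 (14.6) lay below Erbb4 (21.3).

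The share of nuclei with at least 1 UMI of a gene rises with depth, so shares are set side by side after thinning each nucleus of at least 200 UMIs to 200 UMIs. Nrg4 was detected in 33.3% of nuclei of taPVAT and 39.0% of BAT before thinning, and in 1.64% to 6.05% of nuclei of the other libraries. After thinning, the share was 5.98% in taPVAT (5.12 to 6.94) and 4.89% in BAT (4.11 to 5.77), against 1.57% in mesPVAT 10x, 1.33% in Parse mesPVAT, 0.732% in Parse RP fat and 0.261% in cow WAT. The brown libraries thus remained above the others at equal depth, with taPVAT and BAT overlapping in their intervals.

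For Erbb4, thinning turned the order of these libraries. It was detected in 34.1% of cow nuclei, 26.9% of BAT nuclei and 11.7% of nuclei of Parse RP fat before thinning, and in 2.31%, 3.85% and 8.18% after it. Nrg1 was higher in the white than the brown rat Parse libraries before thinning as well, with 14.6% in Parse mesPVAT and 14.2% in Parse RP fat against 10.1% in taPVAT and 8.04% in BAT. After thinning it was found in 7.52% of nuclei of Parse mesPVAT (6.53 to 8.62) and 9.98% of Parse RP fat (8.51 to 11.6), against 1.92% in taPVAT and 1.59% in BAT. Nrg3 was at 13.8% and 11.8% in the white pair and 7.98% and 7.63% in the brown pair before thinning, and at 5.60% and 8.32% against 1.48% and 1.19% after it. Egfr was found in 44.0% of cow nuclei, and after thinning in 5.27% of them (4.39 to 6.26) and in 3.29% of mesPVAT 10x nuclei, with 1.29% to 2.06% in the rat Parse libraries. Nuclei under 200 UMIs, which thinning leaves out, were 3788 in mesPVAT 10x, 476 in Parse mesPVAT, 1302 in Parse RP fat and 0 in the other libraries.

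The first comparison set the brown depots taPVAT and BAT against the white rat depots on the same platform. Spin speed differed between taPVAT and the white depots and is not stated for BAT. Its part cannot be told apart from that of depot. A gene was called where its lower level in one pair was at least 2 times its higher level in the other pair, among 24063 genes with at least 20 UMIs over the 4 libraries. Of the 8 members, 1 was higher in both brown libraries, Nrg4, against 5.31% of all genes tested. Its brown over white ratio was 7.71 as the geometric mean of the 4 pairs of libraries, and the 4 ratios ranged from 7.25 to 8.20. By this rule a called gene stays called when either white library is left out. Leaving a white library out is therefore no check of the call.

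There were 3 members, Nrg1, Nrg3 and Erbb2, that were higher in both white libraries, where 47.4% of all genes tested were called. Nrg1 was 7.99-fold higher in white (range of the 4 ratios 5.19 to 12.3), Nrg3 9.14-fold (7.17 to 11.7) and Erbb2, with 54 brown and 32 white UMIs, 2.75-fold (2.02 to 3.74). The remaining members had white over brown ratios of 1.83 (Nrg2), 1.93 (Egfr), 1.39 (Erbb3, with single ratios on both sides of 1) and 1.66 (Erbb4). A share of 3 in 8 is near the background of 47.4%, so these calls do not set the members apart from other genes. That background includes genes with no matched span. A gene with 0 UMIs in a library was taken as 3 counts, which is a higher CPM in the white libraries, with fewer total UMIs. The part of this floor in the background was not tested. Among matched genes the share ran from 18.3% under 10 kb to 68.8% at 600 kb or more. It was 27.8% in the bin of Erbb2, 10 to 30 kb. Under median of ratios scaling, which moves every brown over white log2 ratio by 0.32, Nrg4 was 9.61-fold higher in brown, Nrg1 and Nrg3 stayed called and Erbb2 was not called (2.20-fold).

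Among genes with a matched span, the ratio was higher in longer genes. The median white over brown ratio was 2.63 over all 24063 genes, 1.26 over the 4780 genes of 30 to 100 kb, the bin of Nrg4, and 5.98 over the 157 genes of 600 kb or more, the bin of Nrg1, Nrg3 and Erbb4, of which 68.8% were higher in both white libraries. The part of the floor of 3 counts in these medians was not tested. Nrg1 and Nrg3 lie above the median of their bin and within or just over its quartiles (2.02 to 8.80), while Erbb4, at 1.66, lies under the lower quartile. Divided by the median of genes of similar span, an alternative chosen after the data were seen, Nrg4 was 9.86-fold higher in brown, Erbb4 was 3.53-fold higher in brown (3.13 to 3.92 over the 4 pairs) and was called, and no member was called in white. Nrg1 and Nrg3 then had brown over white ratios of 0.733 and 0.641. A span was matched for 64.5% of the genes tested, which hold 79.9% of the UMIs, so the span bins are void as a check of the whole table and hold for the matched genes.

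**Figure D2:**
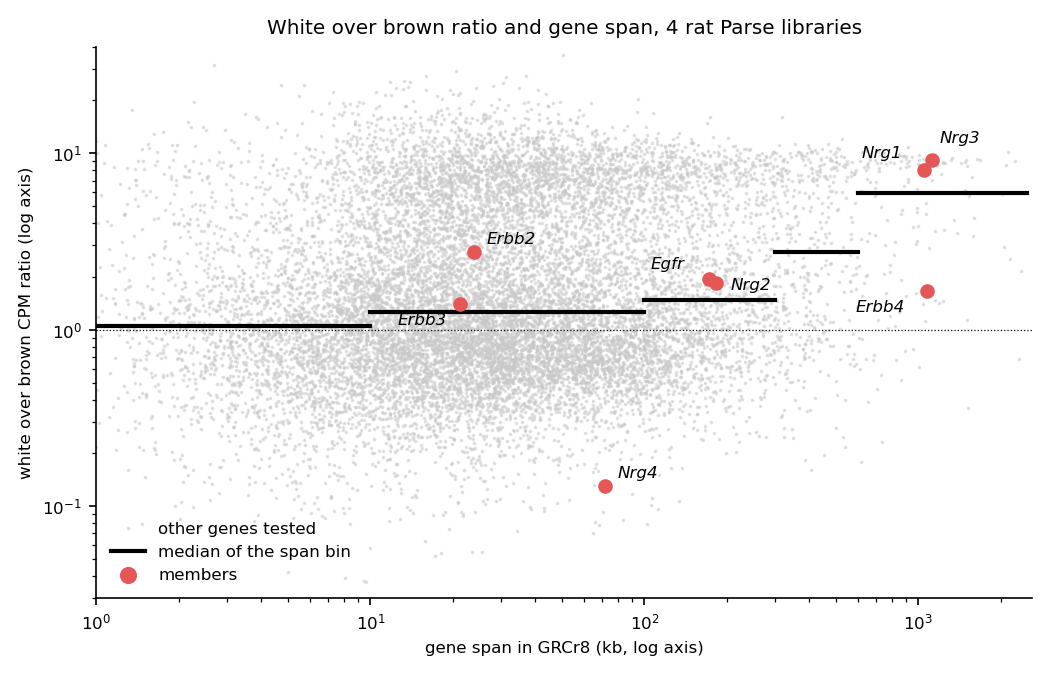
White over brown CPM ratio (geometric mean of the 4 pairs of rat Parse libraries, log axis) against gene span in kb (log axis) for the genes with a matched span, with the members in red and the median of each span bin as a black line. Nrg1 and Nrg3 sit near the high median of the longest genes (5.98), Erbb4 well below it at 1.66, and Nrg4 at 0.130 far below the median of 1.26 for genes of its length.

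Perivascular and non-perivascular fat were compared within each pair. Between taPVAT and BAT, 1 member was at least 2-fold apart, against 7.07% of 18696 genes tested (5.97% higher in taPVAT and 1.1% higher in BAT). This was Erbb3, 2.89-fold higher in taPVAT (1.93 to 4.398, 84 against 36 UMIs). Its wells stood at 11.9 to 22.6 CPM in taPVAT and 4.34 to 6.81 CPM in BAT. Intervals of single wells overlapped, at 6.81 to 19.3 CPM for the lowest taPVAT well (16 UMIs) and 3.81 to 11.2 CPM for the highest BAT well (15 UMIs). Erbb2 (1.80, 1.01 to 3.25, 32 against 22 UMIs), Nrg1 (1.62, 1.38 to 1.91) and Egfr (1.52, 1.28 to 1.80) were higher in taPVAT by less than the 2-fold limit. So were Nrg3 (1.24, 1.03 to 1.49) and Nrg4 (1.12, 1.06 to 1.18). Nrg2 was lower (0.817, 0.691 to 0.964), and the interval of Erbb4 includes 1 (0.938, 0.866 to 1.02). Wells of Nrg1 ranged from 46.1 to 81.3 CPM in taPVAT and from 37.9 to 50.8 CPM in BAT, so the ranges overlap. Those of Nrg2, Nrg3, Nrg4 and Erbb2 overlap as well, and those of Egfr do not (59.7 to 63.3 against 38.0 to 42.6 CPM). The immune list summed to 451 CPM in taPVAT and 177 CPM in BAT and the stromal list to 635 and 200 CPM, and their part in these ratios was not tested. Between Parse mesPVAT and Parse RP fat, 0 of 8 members were 2-fold apart, against 15.7% of 18507 genes (5.88% higher in mesPVAT and 9.79% higher in RP fat). Nrg1, Nrg2, Nrg3 and Erbb4 had mesPVAT over RP fat ratios of 0.684 to 0.761, and those of Nrg4, Egfr, Erbb2 and Erbb3 had intervals that include 1. The median of this ratio was 0.840 over all genes tested. For genes of 600 kb or more, the bin of Nrg1, Nrg3 and Erbb4, it was 0.723 (quartiles 0.669 to 0.822). All 3 lie within these quartiles. For genes of 100 to 300 kb, the bin of Nrg2, it was 0.869.

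The libraries labelled mesPVAT on both platforms differed in 5 of 8 members, all higher on Parse. Of 11913 genes, 55.1% were 2-fold apart, with 32.4% higher on Parse and 22.7% on 10x. That the depot is the same rests on the labels, given the order of genes per nucleus described above for the white Parse libraries. Erbb4 was 13.4-fold higher on Parse (9.25 to 20.3), Nrg1 12.2-fold (8.73 to 17.5), Nrg2 6.82-fold (3.99 to 12.5), Nrg3 6.76-fold (5.19 to 8.93) and Erbb3 2.54-fold, with an interval that includes 1 (0.899 to 8.80, 5 against 17 UMIs). Nrg4 was 1.51-fold (1.13 to 2.02) and Egfr 1.84-fold (1.495 to 2.26) higher on 10x. Erbb2 had a 10x over Parse ratio of 1.78, with an interval that includes 1 (0.978 to 3.31, 28 against 21 UMIs). Genes of 600 kb or more had a median 10x over Parse ratio of 0.141, and 72.7% of them were at least 2-fold lower on 10x, against a median of 0.915 over all genes. Isolation, kit and batch differ between these libraries and cannot be told apart. The genome builds named for them differ as well, and whether the same animals were used is not given in the sources used here.

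To place the members in cell types, nuclei with a UMI of exactly 1 of 5 markers were put in 5 classes, named by the marker, and a member was called raised where its CPM in a class was at least 2 times that in the other classes pooled. The markers were Plin1 for adipocytes, Ptprb for vascular endothelium, Pdgfra for stromal progenitors, Notch3 for pericytes and smooth muscle, and Cdh19 for Schwann cells. Nuclei with no marker made up 85.5% of mesPVAT 10x, 63.6% of Parse mesPVAT, 81.1% of Parse RP fat, 23.0% of taPVAT, 13.7% of BAT and 31.6% of cow WAT. Members raised in at least 1 class, of those with at least 20 UMIs over the classes, were 7 of 7 in taPVAT (background 59.1% of genes tested), 5 of 6 in BAT (51.4%), 3 of 7 in cow WAT (32.1%), 4 of 6 in Parse mesPVAT (58.2%), 1 of 4 in Parse RP fat (40.6%) and 2 of 2 in mesPVAT 10x (57.0%). In taPVAT, Nrg2 and Erbb3 count only through the Notch3 class, with ratios whose intervals include 1 (2.38, 0.936 to 5.05, and 2.42, 0.281 to 9.43). Doublets were not removed, and the class of more than 1 marker held 18.3% of taPVAT nuclei, 18.2% of BAT nuclei and 24.1% of cow nuclei.

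Nrg4 was raised in the Plin1 class of both brown libraries, where the class background was 14.8% of genes in taPVAT and 18.5% in BAT. In taPVAT it stood at 642 CPM in the Plin1 class (611 to 675, 1596 UMIs in 1193 nuclei), 32.2 CPM in the Ptprb class, 30.5 CPM in the Pdgfra class and 14.5 CPM in the Notch3 class (1 UMI), and the Plin1 class was 22.4-fold above the others pooled (12.8 to 43.4). In BAT it stood at 539 CPM in the Plin1 class (514 to 564), 41.2 CPM in the Ptprb class and 6.94 CPM in the Notch3 class (1 UMI), a 16.0-fold difference (10.3 to 26.2). Of all Nrg4-positive nuclei, 71.4% in taPVAT and 75.1% in BAT were in the Plin1 class, which held 44.1% and 52.6% of nuclei. Thinned to 500 UMIs, 24.04% of Plin1 nuclei of taPVAT had an Nrg4 UMI against 0.478% of Ptprb nuclei, and 21.6% against 3.63% in BAT. The median depth before thinning was 1712 UMIs in the Plin1 and 832 in the Ptprb class of taPVAT, and 2043 and 1105 in BAT.

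The nuclei with 2 or more Nrg4 UMIs were also placed by a longer list, which includes Plin1 and so is not independent of the class. Nrg4-positive nuclei were deeper than all nuclei, with median UMIs of 2577.5 against 1246 in taPVAT and 2759 against 1706 in BAT. The part of depth in the shares below was not tested. In taPVAT 514 nuclei had 2 or more, and 99.8% of them held at least 2 UMIs of the 8-gene adipocyte list, as did 62.4% of all nuclei. In BAT it was 99.8% of 565 nuclei, against 74.8% of all. In mesPVAT 10x, all 23 Nrg4 UMIs found in the marker classes were in the Plin1 class. This class is 2.38-fold above the other classes (background 21.2%) when their 0 UMIs are taken as 3 over the group. The lower limit of the interval of this ratio is 1.78. There, 82 of the 105 Nrg4 UMIs were in nuclei with no marker. When nuclei of mesPVAT 10x were placed by 9 longer lists, Nrg4 reached 271 CPM in the mesothelial class (144 to 464, 13 UMIs) and 86.7 CPM in the adipocyte class (60.7 to 120, 36 UMIs). In Parse mesPVAT the Plin1 class had 84.4 CPM against 39.1 CPM (2.16, 1.01 to 5.14, background 8.85%), and in cow WAT it had 2.00 CPM, from 2 UMIs, against 11.2 CPM (0.180, 0.0212 to 0.686).

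Erbb4 was raised in the same class, by less. It was at 263 CPM in the Plin1 class of taPVAT against 101 CPM in the others (2.62, 1.92 to 3.67) and at 274 against 91.0 CPM in BAT (3.01, 2.29 to 4.04). The Ptprb class was lowest, with 72.5 and 58.1 CPM, and the Notch3 class held 131 and 167 CPM. In cow WAT the order differed, with 48.1 CPM in the Plin1 class, 88.1 CPM in the Ptprb class, 85.7 CPM in the Pdgfra class and 138 CPM in the Notch3 class, and the Plin1 class at 0.474 of the others (0.344 to 0.639). In the longer-list placing of taPVAT, Erbb4 was highest in the lymphatic endothelial class (812 CPM, 565 to 1129, from 35 UMIs in 31 nuclei) and the striated muscle class (532 CPM, 325 to 822, from 20 UMIs in 26 nuclei), above the adipocyte class (236 CPM, 221 to 253). A single nucleus of taPVAT held 29 Erbb4 UMIs, and its longer-list class is not given here.

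**Figure D3:**
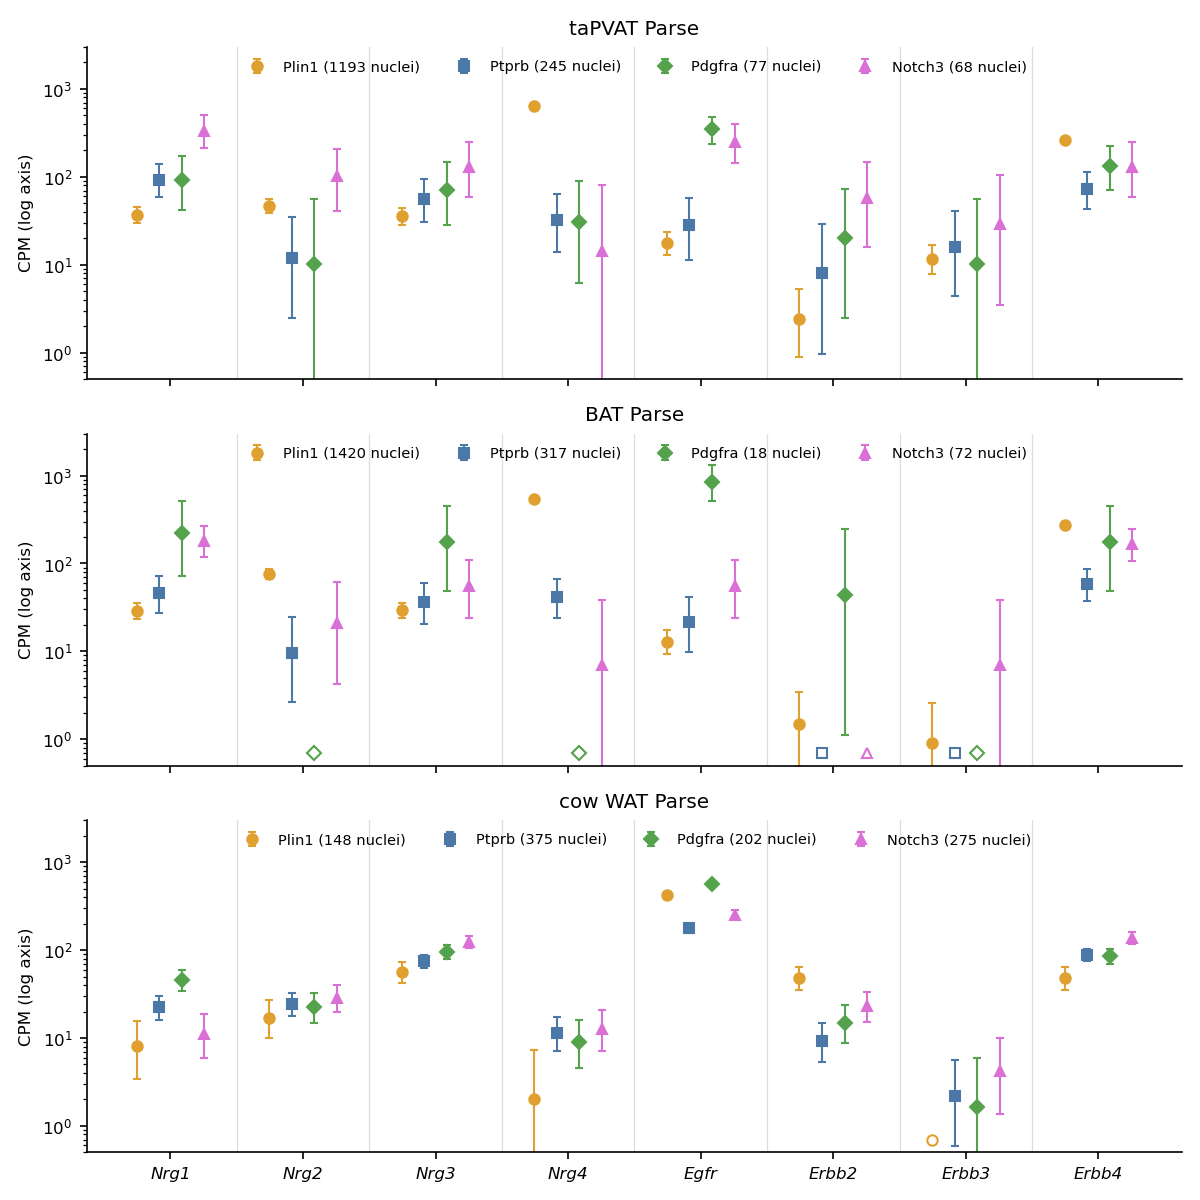
CPM (log axis) of each member in the Plin1, Ptprb, Pdgfra and Notch3 classes of taPVAT, BAT and cow WAT, with exact Poisson 95% intervals, bars running off the axis where they reach below it, and open symbols at the base for 0 UMIs. Nrg4 and Erbb4 are highest in the Plin1 class of taPVAT and BAT, with no such rise in cow WAT, and Egfr is highest in the Pdgfra class of all 3, from 18 nuclei in BAT.

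The other ligands were placed differently. Nrg2 was raised in the Plin1 class of BAT, at 75.7 CPM against 11.8 CPM (6.42, 3.07 to 16.1). Of its 65 nuclei with 2 or more UMIs there, 98.5% held 2 or more adipocyte-list UMIs, as did 74.8% of all nuclei. Nrg2-positive nuclei of BAT were deeper, with a median of 3075.5 UMIs against 1706. In taPVAT its Plin1 class had 47.1 against 26.3 CPM (1.79, 0.964 to 3.68), its Notch3 class 102 CPM from 7 UMIs (2.38, 0.936 to 5.05), and the immune class of the longer lists 158 CPM (105 to 228, 28 UMIs). Nrg1 was raised in the Notch3 class of both brown libraries, at 334 against 43.8 CPM in taPVAT (7.62, 4.66 to 12.0, background 21.6%) and 180 against 31.9 CPM in BAT (5.65, 3.55 to 8.69, background 19.6%), and was low in their Plin1 classes (37.0 and 29.0 CPM). Its Ptprb class was just under the 2-fold limit in taPVAT, at 92.7 against 46.7 CPM (1.98, 1.21 to 3.11). In BAT the Ptprb ratio of Nrg1 was 1.27 (0.738 to 2.06). In mesPVAT 10x it was 9.70 (2.09 to 48.9), from 5 against 4 UMIs, too few to be tested. In cow WAT Nrg1 was raised in the Pdgfra class instead, at 45.3 against 15.4 CPM (2.94, 2.01 to 4.29, background 6.42%), with 11.0 CPM in the Notch3 class (8.47%) and 22.3 CPM in the Ptprb class (7.84%), where no member was raised. Nrg3 was raised in the Notch3 class of taPVAT, at 131 CPM from 9 UMIs (3.36, 1.498 to 6.62), and stood at 336 CPM (218 to 496, 25 UMIs) in the 17 cow nuclei of the Cdh19 class, which is under the 20 nuclei set as the smallest class. In taPVAT the Notch3 class held 68962 UMIs in 68 nuclei and the Plin1 class 2484876 UMIs in 1193 nuclei. Nrg1 and Nrg3 were also higher in the shallowest taPVAT nuclei, as given below. The part of depth in their Notch3 calls was not tested.

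In taPVAT, Egfr was the member with the clearest stromal placing. Its Pdgfra class stood at 346 CPM in taPVAT (240 to 484) against 24.2 CPM in the others (14.3, 9.17 to 21.8, background 23.6%), and at 564 against 254 CPM in cow WAT (2.22, 2.01 to 2.44). The 18 Pdgfra nuclei of BAT, too few for a class, had 843 CPM (507 to 1316, 19 UMIs). The Pdgfra class was not raised in the white rat libraries, where all intervals include 1. Its ratio was 1.23 (0.245 to 3.81) in Parse mesPVAT and 1.75 (0.441 to 5.09) in mesPVAT 10x. In Parse RP fat it was 0.684 (0.0755 to 2.98), with too few UMIs to be tested. Of 66 taPVAT nuclei with 2 or more Egfr UMIs, 81.8% held at least 2 UMIs of the stromal list, which includes Pdgfra, as did 16.1% of all nuclei. The Notch3 class was raised too, at 247 CPM in taPVAT (8.22, 4.58 to 13.9) and 55.5 CPM in BAT (2.96, 1.23 to 6.16). In the Plin1 class Egfr stood at 17.7 CPM in taPVAT and 12.9 CPM in BAT, at 0.128 and 0.212 of the other classes, and at 419 CPM in cow WAT, at 1.38 of the others (1.23 to 1.54). In the Plin1 class of the mesenteric rat libraries it was at 100.3 CPM on Parse (1.65, 0.873 to 3.29) and 104 CPM on 10x (0.776, 0.328 to 2.04), ratios whose intervals include 1. The longer lists gave the cow adipocyte class 514 CPM (493 to 535) and its stromal class 553 CPM (531 to 575).

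The remaining receptors were sparse. Erbb2 was raised in the Plin1 class of cow WAT, at 48.1 against 15.6 CPM (3.09, 2.09 to 4.54, background 9.96%), and reached 64.3 CPM (57.2 to 71.9, 301 UMIs) in the cow adipocyte class of the longer lists. In the rat marker classes it had under 20 UMIs in each library and was not tested. Erbb3 in taPVAT was at 29.0 CPM in the Notch3 class against 12.0 CPM, a ratio of 2.42 that rests on 2 UMIs (0.281 to 9.43). The longer lists placed it elsewhere, with 44 of its 84 taPVAT UMIs in the immune class (248 CPM, 180 to 333, 188 nuclei) and 20 of its 36 BAT UMIs in the Schwann class (318 CPM, 194 to 491, 28 nuclei). All 9 taPVAT nuclei with 2 or more Erbb3 UMIs held at least 2 immune-list UMIs, as did 14.0% of all nuclei, and 8 of 9 such BAT nuclei held at least 2 Schwann-list UMIs, as did 3.85% of all. The Erbb3 nuclei of the 2 brown libraries therefore carried different lists, and that difference was not tested.

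The white rat Parse libraries had few UMIs per class, and the part of ambient RNA in their class levels was not tested. In Parse RP fat, Nrg1 ranged from 269 CPM in the Cdh19 class (2 UMIs) to 709 CPM in the Notch3 class (388 to 1189), and nuclei with no marker held 581 CPM (522 to 646). Erbb4 ranged there from 269 to 557 CPM, with 462 CPM in nuclei with no marker (409 to 519). In Parse mesPVAT, Nrg1 ranged from 224 to 524 CPM over the classes and Erbb4 from 211 to 350 CPM, while Nrg4 ranged from 12.6 CPM in the Ptprb class to 175 CPM in the Cdh19 class, with 2 UMIs in each. Over classes, the background in Parse RP fat was 8.74% of genes for Plin1, 5.75% for Ptprb, 5.94% for Pdgfra, 8.21% for Notch3 and 15.6% for Cdh19. In Parse mesPVAT, the members called raised outside the Plin1 class rest on 2 to 9 UMIs in the 24 nuclei of the Cdh19 class (Nrg1, Nrg3, Nrg4 and Egfr, background 22.6%), with none in the Ptprb, Pdgfra and Notch3 classes (12.5%, 15.8% and 14.2%). In Parse RP fat, the call of Nrg2 rests on 6 UMIs in the Notch3 class and 3 UMIs in the Cdh19 class. In mesPVAT 10x, Egfr in the Notch3 class rests on 2 UMIs (background 14.0%), and the Ptprb and Pdgfra classes (15.5% and 14.4%) had no member raised.

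Within the Plin1 class of the brown libraries, nuclei were split by Ucp1, a split chosen after the data were seen. Nrg4 was at 679 CPM (645 to 714) in 902 Ucp1-positive nuclei of taPVAT and 374 CPM (307 to 450) in 291 Ucp1-negative ones, and at 561 CPM (535 to 588) and 283 CPM (223 to 354) in BAT. Erbb4 was at 279 CPM (257 to 302) and 148 CPM (108 to 199) in taPVAT and at 282 and 182 CPM in BAT. Nrg1 went the other way, at 32.9 CPM (25.7 to 41.4) and 67.3 CPM (41.1 to 104) in taPVAT and 25.1 and 74.4 CPM in BAT, as did Nrg3 and Egfr. Positive and negative nuclei also differed in depth, with median UMIs of 2090 and 889 in taPVAT and 2241 and 962 in BAT, and the part of depth in the split was not tested.

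**Figure D4:**
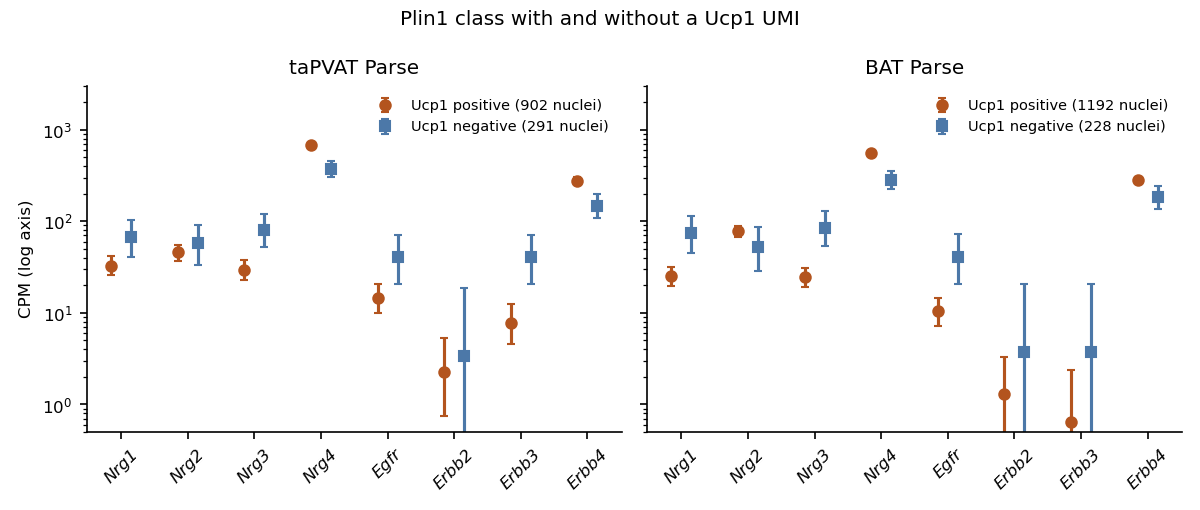
CPM (log axis) of each member in Plin1-class nuclei with and without a Ucp1 UMI in taPVAT and BAT, with exact Poisson 95% intervals. Nrg4 and Erbb4 are higher with Ucp1 in both libraries (Nrg4 679 against 374 CPM in taPVAT), and Nrg1, Nrg3 and Egfr are higher without it.

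Level also varied with the depth of the nucleus. Nuclei were ranked by UMIs and cut into 3 equal parts. In taPVAT, Nrg4 was at 130 CPM (101 to 166) in the shallowest nuclei, 272 CPM (243 to 304) in the middle ones and 564 CPM (540 to 590) in the deepest, and BAT had 139, 360 and 469 CPM. Nrg1 fell from 172 to 99.4 and 45.6 CPM over the same parts of taPVAT and from 103 to 59.7 and 26.9 CPM in BAT. Nrg3 was at 110, 69.1 and 30.8 CPM in taPVAT and 109, 34.0 and 27.9 CPM in BAT. Erbb4 was at 166, 186 and 231 CPM in taPVAT and 136, 212 and 251 CPM in BAT. Nrg2 was at 56.2, 52.7 and 43.8 CPM in taPVAT and 48.7, 50.7 and 61.7 CPM in BAT. The shallowest taPVAT nuclei, with a median of 540 UMIs, were nearer to the white libraries in Nrg4, Nrg1 and Nrg3 than the deepest, while Erbb4 was nearer to them in the deepest.

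**Figure D5:**
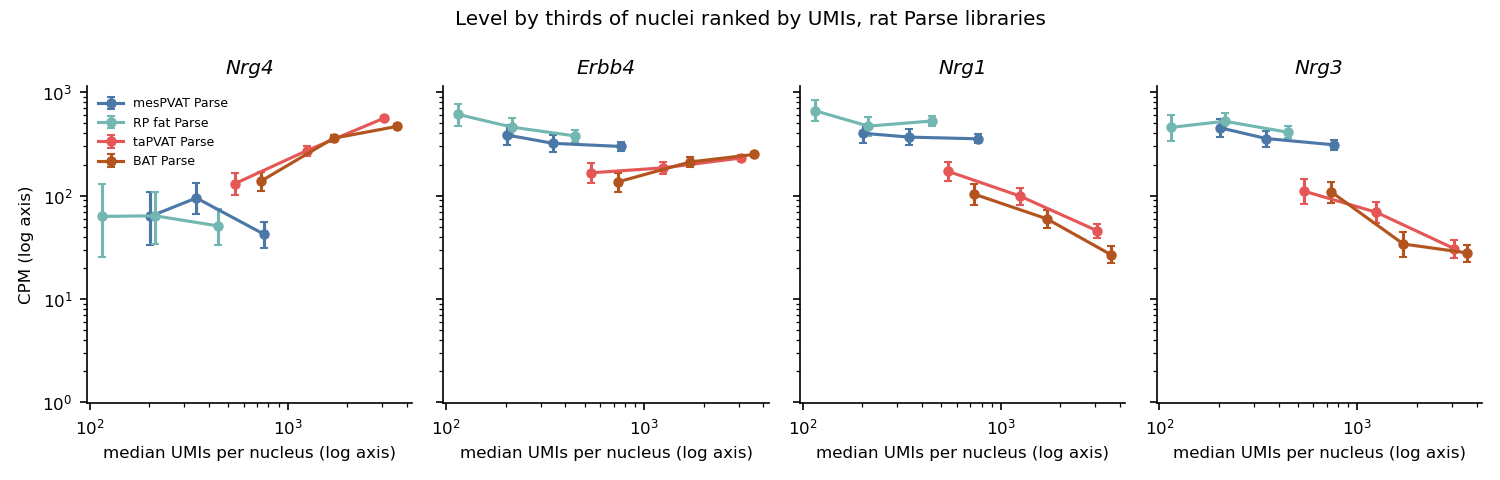
CPM of Nrg4, Erbb4, Nrg1 and Nrg3 (log axis) against the median UMIs per nucleus (log axis) of 3 equal parts of the nuclei ranked by UMIs in the 4 rat Parse libraries, with exact Poisson 95% intervals. In taPVAT and BAT, Nrg4 goes up with depth (130 to 564 CPM in taPVAT) and Nrg1 and Nrg3 go down, while Erbb4 goes from 166 to 231 CPM in taPVAT.

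Ligand and receptor were looked for in the same nuclei. Thinned to 500 UMIs, 1094 Plin1 nuclei of taPVAT had Nrg4 in 24.04%, Erbb4 in 10.1% and both in 29 nuclei, or 2.65% (1.78 to 3.78), where the product of both shares is 2.44%. In BAT 1395 such nuclei had Nrg4 in 21.6%, Erbb4 in 12.97% and both in 41 nuclei, or 2.94% (2.12 to 3.97), with a product of 2.81%. Joint detection therefore lay within counting error of the product of the shares.

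The genes most like each member were sought over 11 sums of nuclei (rat Parse library by marker class, each with at least 50000 UMIs), by Pearson's r of log2(CPM + 10) among 5695 genes. These correlations describe points that share libraries, depth and span effects, and carry no test. Nrg4 was most like Myo19 (0.974), a mitochondrial myosin, and Gys2 (0.957), the liver and fat form of glycogen synthase, followed by AABR07035839.1 (0.954). Erbb4 was most like Epb41l3 (0.914), Sugct (0.882) and L3mbtl4 (0.882), Egfr most like Sh3rf3 (0.915), Ust (0.907) and the collagen gene Col3a1 (0.896), and Nrg2 most like Map7 (0.904), Fbxo15 (0.900) and Mettl8 (0.879). Nrg1 was most like Nckap5 (0.978), Kcnq1 (0.974) and Cadm1 (0.972), and Nrg3 like Nell1 (0.992), Dscam (0.988) and Rbfox1 (0.981), which all span at least 331 kb.

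Around the members, 31 other genes of the EGF family and ErbB signalling were listed from their textbook roles. Of the 29 tested between brown and white, 3 were higher in both brown libraries (background 5.31%) and 3 in both white ones (47.4%). Their median brown over white ratio was 1.56 against 0.380 over all genes, which include genes with no matched span. The part of UMI count, and of 0 UMIs taken as 3 counts, in the median over all genes was not tested. Among matched genes the inverse of the median white over brown ratio was 0.957 under 10 kb and 0.680 at 100 to 300 kb. It was 0.167 at 600 kb or more. Those higher in brown were the adaptor Shc1 (4.13-fold), the regulatory subunit of PI3 kinase Pik3r1 (4.20-fold) and the ubiquitin ligase Cblb (3.71-fold). Those higher in white were the ligands Ereg, Epgn and Hbegf, with brown over white ratios of 0.147, 0.0582 and 0.334. These rest on 22, 23 and 68 UMIs over the 4 libraries, and the shares called were not compared by role. Between taPVAT and BAT, 1 of 27 was 2-fold apart, the ligand Tgfa, 2.35-fold higher in taPVAT, with a list median of 1.04 against 1.08 over all genes.

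Within the brown libraries, the counts of the same list raised in a class lay near the background. In the Plin1 class, 4 of 26 genes were raised in taPVAT (14.8% of all genes) and 5 of 26 in BAT (18.5%), and 6 in each were at least 2-fold lower than in the other classes. Pik3r1 (3.91 and 3.94), Shc1 (2.01 and 2.20), Cblb (2.02 and 2.53) and the receptor inhibitor Lrig1 (3.10 and 2.53) were raised in both libraries, and Lrig3 (2.47) in BAT. In the Notch3 class, 4 of 26 were raised and 4 lower in taPVAT (21.6% of all genes raised) and 5 raised and 7 lower in BAT (19.6%). There the feedback inhibitor Errfi1 was 11.5-fold and 13.7-fold above the other classes and the docking protein Gab1 7.08-fold and 7.50-fold, with the protease Adam19 raised in both (2.88 and 2.08), Egf in taPVAT (2.54) and Adam10 and Nck2 in BAT (2.17 and 2.08). In the Ptprb class, 4 of 26 were raised and 5 lower in taPVAT and 5 raised and 4 lower in BAT. It had the adaptor Nck2 (5.44 and 7.61), the sheddase Adam10 (3.19 and 3.39) and Gab1 (2.54 and 2.03) raised in both libraries, with Tgfa in taPVAT (2.14) and Bace1 (3.07) and Cbl (2.78) in BAT, over backgrounds of 21.9% and 20.4%. In the Pdgfra class of taPVAT, with 5 of 26 raised and 2 lower against 23.6% of all genes raised, Errfi1 (9.39), Adam19 (6.25), Tgfa (2.79), Gab1 (2.45) and Nck2 (2.06) were the genes raised. The list medians in these classes lay between 0.905 and 1.16 and those of all genes between 0.841 and 1.47.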

How the data were processed

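Nuclei of rat and cow fat were profiled in 6 libraries, 1 per condition. For the Parse libraries, the authors separated the reads of rat and cow and ran split-pipe v1.5.1 on GRCr8 (rat) or ARS-UCD1.3 (cow), and deposited UMI counts per gene and barcode of the filtered matrix, without normalization. For 10x Genomics, the authors deposited the UMI counts of barcodes called as cells by Cell Ranger v7.1.0, for which Rnor_6.0 is named, a build that its gene identifiers leave in doubt. No further filter or doublet removal is stated for these files, and none was applied to the main values. Groups came from the labels.

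Counts were summed over nuclei and scaled to CPM. Exact Poisson, binomial and conditional binomial 95% intervals cover counting error only, since UMIs of 1 library are not replicates, and no p-value was computed. A gene with 0 UMIs was taken as 3 counts. Calls needed 20 UMIs over the sums compared and a 2-fold difference, and a class 20 nuclei. Thinning was without replacement, with seed 20. The members, the marker classes and the pathway list were chosen with earlier results of these data known. Genes to be named were the members, pathway genes called between brown and white or in a class of taPVAT or BAT, and the 3 most alike genes. Gene spans and promoters came from RefSeq (GRCr8). Total UMIs ranged from 845316 to 16827260. Alternatives covered folds, UMI minimums, depth cuts, thinning depths, the study's filters, sublibraries, scalings and ways to assign classes. Added after the data were seen were the span correction, the Ucp1 split, the 3 parts by depth, wells, joint detection, nuclei with 2 or more UMIs, the 9 longer-list classes and the brown against white counts without a white library. Steps were tested on simulated counts. Python 3.11.15, numpy 2.4.6, scipy 1.17.1, pandas 2.3.3 and matplotlib 3.10.9 were used.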

Additional observations from a re-analysis of the deposited data

Results flagged for a closer look

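Some members were above the other marker classes in a class of one library and below them in the same class of another, with intervals on opposite sides of 1. None of these differences was tested, since each condition has 1 library, and species, depth and depot differ between them. Nrg4 in the Plin1 class was above the other classes by 2.16-fold in Parse mesPVAT, 22.4-fold in taPVAT and 16.0-fold in BAT, and was at 0.180 of them in cow WAT. In mesPVAT 10x it was 2.38-fold above them with their 0 UMIs taken as 3 (lower limit 1.78). With the longer lists, its level there was higher in the mesothelial than in the adipocyte class. Erbb4 in the Plin1 class was at 2.62 and 3.01 times the other classes in taPVAT and BAT and at 0.474 in cow WAT. Egfr in the Plin1 class was at 1.38 in cow WAT, against 0.128 in taPVAT and 0.212 in BAT. In the Notch3 class, Egfr was at 8.22 in taPVAT and 2.96 in BAT and at 0.729 in cow WAT, and Nrg1 was at 7.62 and 5.65 in taPVAT and BAT and at 0.433 in cow WAT. Nrg2 in the Notch3 class was at 3.48 in Parse RP fat, from 6 UMIs, and at 0.307 in BAT, from 3 UMIs. Erbb4 in the Notch3 class was at 1.76 in cow WAT and 0.667 in BAT.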

How the results depend on the processing

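No paired analysis was possible because each condition has 1 library. Counts of members called stayed within 1.5 times their value in 87 of 118 values under an alternative setting. Relative to genes of similar span, 2 members were higher in brown, 0 in white, and 3 were apart between the platforms. Between taPVAT and BAT, 4 were apart at 1.5-fold, 0 at 3-fold and 2 in sublibrary 1 alone. Between Parse mesPVAT and Parse RP fat, 1 was apart at 1.5-fold and 1 without the 5% of nuclei with the most UMIs. At 1.5-fold, 8 members were apart between the platforms, where 55.1% of all genes tested were apart at 2-fold. The shares of all genes called under these alternative settings are not given here. These counts therefore do not set the members apart from other genes.

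Members raised in a marker class moved under the most settings in mesPVAT 10x and Parse RP fat. In mesPVAT 10x they numbered 0 at 3-fold, with 50 UMIs or with 2 UMIs of the marker, 5 with 1 UMI or more, and 1 with every nucleus of the marker, with longer lists, with the study's filters or without the 5% of nuclei with the most UMIs. In Parse mesPVAT they numbered 1 at 3-fold or with 2 UMIs of the marker and 2 with longer lists. In Parse RP fat they numbered 4 at 1.5-fold or with 1 UMI or more, and 0 with 50 UMIs, 2 UMIs of the marker or longer lists. They numbered 4 at 3-fold in taPVAT, 8 with every nucleus of the marker or with longer lists in BAT, and in cow WAT 6 at 1.5-fold and 1 at 3-fold or with longer lists. The shares of all genes raised under these settings are not given here either. The log2 ratios that changed sign were 4, Nrg3 between 10x and Parse relative to genes of similar span (0.067), Nrg4 in the Cdh19 class of Parse mesPVAT (-0.26) and Erbb3 in the Notch3 class of taPVAT (-0.27) with every nucleus of the marker, and Nrg2 in the Notch3 class of taPVAT with 2 UMIs of the marker (-0.27). The causes were not tested. With Spearman's correlation, under 2 of the 3 most alike genes were shared with the reported ones for all 6 members, and with a pseudocount of 1 CPM at least 2 of 3 were shared for all 6. Of 48 member levels, 18 moved when genes over 1% of UMIs were left out of the total, all 18 upward in taPVAT, BAT and cow WAT. In nuclei with at least 500 UMIs, 12 of 48 moved, all in mesPVAT 10x and the white rat Parse libraries, among them 3 members at 0 in mesPVAT 10x and Nrg4 at 34.3 CPM in Parse RP fat. With the study's filters 6 of 48 moved. The part of depth in these moves was not tested.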
